A study of Mus musculus with 10 samples.

Results

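Potassium channel genes and genes of ionotropic GABA receptors and of ionotropic and metabotropic glutamate receptors were examined for H3K4me3 in fully grown oocytes lacking *Setd1b*. The members were the genes on chromosomes 1 to 19 whose annotated symbol begins with Kcn, Gabr, Gria, Grik, Grin or Grm followed by a digit, or by a letter and a digit, without *Kcnq1* and *Kcnq1ot1*. This gave 113 genes of 23225 with a window on these chromosomes (24678 in the whole table), 76 for potassium channel subunits and 37 for receptor subunits. They held 3249 of the 544879 windows of 5 kb. Both groups were pools of germinal vesicle (GV) oocytes, about 200 per pool, from 21-day-old C57BL6 females, and the labels give *Setd1b* floxed/floxed for all libraries. The *Setd1b* cKO group was *Gdf9*-Cre positive (H3K4me3 replicates 1, 3 and 4) and the WT group was *Gdf9*-Cre negative (H3K4me3 replicates 1, 2 and 4). The study's methods also count heterozygous females with *Gdf9*-Cre as WT, which the labels of these libraries do not mention. In this model Cre is expressed from an oocyte promoter and removes the gene from early folliculogenesis on. Because each library is a pool, less H3K4me3 per oocyte and fewer oocytes with the mark cannot be told apart.

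Potassium channels let potassium leave or enter the cell and set the resting potential and the shape of electrical signals. GABA-A receptors are chloride channels of inhibitory synapses, and AMPA, kainate and NMDA receptors are cation channels of excitatory synapses, while metabotropic glutamate receptors signal through G proteins. These genes are best known from neurons, muscle and glia, many lie over long gene bodies, and many start within CpG islands. H3K4me3, trimethylation of lysine on histone H3, marks active and poised promoters in most cells, and in growing oocytes it also spreads into broad domains outside promoters. SETD1B is one of the methyltransferases that deposit it.

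H3K4me3 was given as normalized RPKM, a linear scale on which the 40th percentile of all windows is 1.23 and the 99th percentile is 6.77 in every library. Depth ranged from 10856015 to 32775874 reads in windows over the 6 H3K4me3 libraries, with a median of 11 to 47 reads per window. The ratio of reads at the 99th to the 40th percentile, a measure of enrichment, was 13.5, 3.47 and 3.88 in cKO replicates 1, 3 and 4 and 14.3, 5.38 and 6.97 in WT replicates 1, 2 and 4, and its part in the differences below was not tested. In the first 5 kb window of *Setd1b* itself, the values were 2.17, 3.21 and 3.25 in the cKO libraries and 8.34, 9.69 and 7.37 in the WT libraries, which do not overlap, although a window of this size does not show the deleted exons. Of 12 oocyte markers, 3 had a higher value in cKO and none passed the test, and their summed highest windows ranged from 59.9 to 61.7 in cKO and from 67.9 to 74.2 in WT. For 9 granulosa cell markers the sums were 43.2 to 47.4 in cKO and 38.2 to 40.1 in WT, 7 were higher in cKO and *Foxl2* passed the test, and for 3 neuronal markers they were 13.4 to 15.8 and 15.8 to 17.5. No marker was at 0 in either list, and the part of other cells in the results was not tested. Input at the member windows with a transcription start was alike, with a median of 1.95 to 2.08 in cKO and 2.01 to 2.07 in WT (reads per window, scaled to library size).

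At the window with the highest mean over the 6 libraries, taken for each gene, H3K4me3 was gained in 3 of the 113 genes and lost in none (limma on the values as deposited, adjusted p under 0.05 over all windows). Over the highest windows of all 23225 genes 1.28% were gained and 1.18% lost, and over all windows of the genome 0.563% and 0.454%. With the replicate number as a block, 8 of the highest windows were gained and 7 lost. In that fit only replicates 1 and 4, which occur in both groups, inform the difference. The matching shares of all genes are not given for it. The 3 genes were *Kcnh2*, the hERG channel of cardiac repolarization, *Kcnn3*, a small-conductance calcium-activated channel, and *Kcnv2*, a silent subunit that forms channels with other voltage-gated subunits. In *Kcnh2* (chr5:24350001-24355000, the window of its transcription start in GENCODE M21) the values were 6.55, 7.04 and 6.24 in cKO replicates 1, 3 and 4 and 4.84, 4.05 and 3.78 in WT replicates 1, 2 and 4, so that every cKO library lay above every WT library. The difference was 2.39 ± 0.401 normalized RPKM (SE, n = 3 per group, limma adjusted p = 0.033). *Kcnv2* (chr19:27320001-27325000, also the window of the start) had 3.95, 4.53 and 4.56 in cKO and 2.43, 2.3 and 2.76 in WT, a difference of 1.85 ± 0.35 (limma adjusted p = 0.044). *Kcnn3* had its highest window 67.3 kb inside the gene, with 4.33, 4.79 and 4.65 in cKO and 2.17, 2.59 and 3.03 in WT (difference 2.00 ± 0.362, limma adjusted p = 0.039). In edgeR on the whole reads of these 3 windows the log2 fold changes were 0.42, 0.68 and 0.74, with adjusted p of 0.780 for *Kcnh2*, 0.453 for *Kcnv2* and 0.407 for *Kcnn3*.

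The levels of these highest windows ran from 1.33 to 8.29 normalized RPKM over the 6 libraries, with a median of 5.05, and 9 of the 113 were above the 99th percentile of all windows. The highest was in *Kcnq5*, a subunit of the M-current, with 8.16, 8.09 and 9.28 in cKO and 9.02, 7.94 and 7.25 in WT, which overlap. Most of the genes had their maximum away from their start, since 38 of the 113 highest windows held the transcription start and 75 did not. In 74 of the 113 genes the cKO mean was the higher (65.5% against 51.6% of all genes), with a median difference of 0.278 against 0.038. The groups did not overlap in 22 genes with higher and 9 genes with lower cKO values, 19.5% and 7.96%, where 13.8% and 10.6% of all genes did so. The cKO mean was higher in 69 of 113 genes on log2(value + 1) and in 72 of 113 after quantile normalization. In edgeR on whole reads 47 of 113 were higher in cKO (41.6% against 39.2% of all genes) and the median log2 fold change was −0.07 against −0.11. Choosing each window by WT libraries alone gave 62 of 113.

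At the window that holds the annotated transcription start, a larger share of the genes was higher in cKO. Such a window was present under the gene's own name for 98 of the 113 genes, 69 of potassium channels and 29 of receptors. The cKO mean was higher in 82 of these 98 windows (83.7%), where it was higher in 54.2% of the 19908 start windows of all genes, and the median difference was 0.556 against 0.0887 normalized RPKM. The median over the 98 windows was 3.61, 4.00 and 3.59 in cKO replicates 1, 3 and 4 and 3.01, 2.69 and 3.07 in WT replicates 1, 2 and 4. Over all genes the medians were 3.89, 3.74 and 3.83 in cKO and 3.69, 3.47 and 3.66 in WT. The member genes thus started from a lower WT level (median 3.02 against 3.63) and were closer to the level of all genes in cKO (3.77 against 3.92). In 26 windows every cKO library was above every WT library and in 4 every cKO library was below, 26.5% and 4.08% of the members, against 14.8% and 9.01% of all start windows. With adjustment over all windows, 2 of the 98 were gained (*Kcnh2* and *Kcnv2*) and none was lost in limma, where 1.09% of all start windows were gained and 0.769% lost. With the replicate number as a block 4 were gained and 3 lost, and with an intensity trend 4 were gained. On log2(value + 1), after quantile normalization and in edgeR with DESeq2 size factors none was called. The matching shares of all start windows under these settings are not given. At an unadjusted p under 0.05, 25 of the 98 were higher and 4 lower, and over all start windows 14.4% were higher and 9.47% lower.

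**Figure D1:**
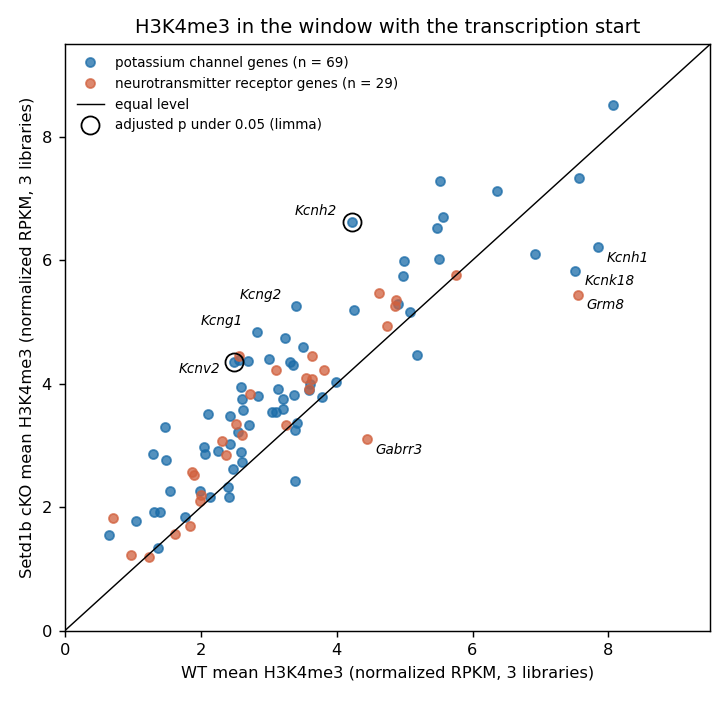
Mean H3K4me3 (normalized RPKM) of 3 WT libraries on the x axis and of 3 *Setd1b* cKO libraries on the y axis, in the window with the transcription start of 98 genes; points above the line are higher in cKO. 82 points lie above the line, rings mark *Kcnh2* and *Kcnv2*, and the 4 named points below the line are genes in which every cKO library lay below every WT library.

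The shift was smaller on whole reads. In edgeR 63 of the 98 start windows were higher in cKO (64.3% against 43.9% of all start windows), with a median log2 fold change of 0.12 against −0.06. It was 79 of 98 on log2(value + 1) and 81 of 98 after quantile normalization. Leaving out each library in turn gave 73 to 83 of 98. In 62 of the 98 the cKO mean stayed above the WT mean whichever library was left out, and in 8 it stayed below. The matching share of all start windows is not given. Without the windows that hold the start of another gene, 72 of 88 were higher.

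Upstream sequences are shown for the highest differences (*Grin2c* and *Kcnj10*) and the lowest (*Grm8*) among genes whose RefSeq promoter was found inside the window. They are the 250 bases before the RefSeq start (GRCm38.p6, minus strand for *Grin2c* and *Grm8*, plus strand for *Kcnj10*), written 5′ to 3′ in the direction of the gene, with each CpG dinucleotide (CG, which reads the same on both strands) in capitals. *Grin2c* lies at chr11:115267244-115267493, *Kcnj10* at chr1:172340960-172341209 and *Grm8* at chr6:28135147-28135396.
*Grin2c* promoter: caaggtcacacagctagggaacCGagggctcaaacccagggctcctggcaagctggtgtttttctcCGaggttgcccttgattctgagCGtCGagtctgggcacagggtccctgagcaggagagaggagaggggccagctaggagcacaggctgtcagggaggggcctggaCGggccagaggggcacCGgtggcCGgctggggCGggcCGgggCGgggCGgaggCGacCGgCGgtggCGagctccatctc
*Kcnj10* promoter: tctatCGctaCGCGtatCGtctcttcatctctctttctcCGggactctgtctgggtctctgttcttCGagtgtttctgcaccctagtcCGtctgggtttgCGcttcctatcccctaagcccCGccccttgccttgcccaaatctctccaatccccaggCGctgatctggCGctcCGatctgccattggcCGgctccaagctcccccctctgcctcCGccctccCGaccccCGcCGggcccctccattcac
*Grm8* promoter: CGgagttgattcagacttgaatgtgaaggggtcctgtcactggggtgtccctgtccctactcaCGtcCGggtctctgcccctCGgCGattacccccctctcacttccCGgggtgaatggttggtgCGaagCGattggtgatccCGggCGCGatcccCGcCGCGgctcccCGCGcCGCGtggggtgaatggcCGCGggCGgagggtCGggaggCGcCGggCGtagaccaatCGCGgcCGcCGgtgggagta
They held 15, 17 and 29 CpGs. At least as many CpGs were found in 27.3%, 23.5% and 6.78% of the 32851 promoters of the table. The median was 6 CpGs over all promoters and 9 over the 81 members with an entry, and at least 1 CpG was present in 92.1% and 96.3% of them. The RefSeq promoter lay inside the start window for 66 of the 81 and outside it for *Kcnh2*. *Grin2c* encodes an NMDA receptor subunit best known from the cerebellum, and its start window had 3.84, 5.19 and 4.31 in cKO and 3.16, 2.1 and 2.43 in WT. *Kcnj10* encodes an inward rectifier of glia, with 4.67, 5.06 and 3.45 in cKO and 2.28, 2.2 and 3.24 in WT. *Grm8*, a presynaptic metabotropic glutamate receptor, went the other way, with 6.28, 4.0 and 6.05 in cKO and 7.3, 8.23 and 7.1 in WT. None of these 3 differences (1.88, 1.82 and −2.10) passed the test, with limma adjusted p of 0.079, 0.108 and 0.125, although the groups did not overlap in any of them.

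Voltage-gated channel genes were the largest family. Their start windows were higher in cKO in 32 of 35 genes (26 of 35 in edgeR), with a median difference of 0.659. The groups did not overlap in 11 genes that were higher and 1 that was lower, where 14.8% and 9.01% of all start windows did so. Besides *Kcnh2* and *Kcnv2*, the members with the highest differences, named after their values were seen, were *Kcng1*, *Kcng2*, *Kcnh3* and *Kcnc1*. *Kcng1* and *Kcng2* encode silent subunits, like *Kcnv2*. *Kcng1* had 4.83, 3.87 and 5.81 in cKO and 3.01, 2.69 and 2.79 in WT, and *Kcng2* had 4.28, 6.25 and 5.23 and 3.53, 3.08 and 3.6, and in both genes the lowest cKO library was above the highest WT library. *Kcnc1*, a fast channel of rapidly firing neurons, had 3.84, 5.19 and 4.07 in cKO and 2.85, 2.59 and 2.67 in WT. *Kcnh3* had 5.94, 9.41 and 6.48 and 5.94, 5.22 and 5.43, where cKO replicate 3 stands apart from the rest. None of these 4 passed the test (limma adjusted p = 0.078, 0.103, 0.088 and 0.313). The opposite order was seen in *Kcnh1*, a relative of *Kcnh2* in the EAG group, with 6.28, 6.77 and 5.57 in cKO and 8.92, 7.26 and 7.34 in WT (difference −1.64 ± 0.512, limma adjusted p = 0.161). At the highest windows this family ran from −2.21 in *Kcnh5* to 2.59 in *Kcnh4*, with limma adjusted p of 0.0695 and 0.332. The cKO values of *Kcnh4* were 4.22, 10.1 and 6.39, a spread that overlaps the WT values of 4.84, 3.27 and 4.8.

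Genes of calcium- and sodium-activated channels were higher in cKO at 5 of 5 start windows (4 of 5 in edgeR), with a median of 0.803. Their highest windows were lower in 5 of 7 genes (all but 1 in edgeR). The start count was 3 of 5 with the replicate number as a block. *Kcnt1*, a sodium-activated channel, had 2.62, 4.79 and 2.48 in cKO and 1.75, 1.13 and 1.56 in WT at its start, and −0.194 as the difference at its highest window, 13.8 kb downstream. The start window of *Kcnt1* passed in edgeR (adjusted p = 0.0491) but not in limma (adjusted p = 0.167), and *Kcnt1* and *Kcnj3* were the 2 start windows that edgeR called. *Kcnn3* was higher in cKO at both places, with 4.06, 3.47 and 4.31 in cKO and 2.9, 2.1 and 2.76 in WT at the start. *Kcnn2*, another small-conductance channel, had the most negative highest window, with 4.83, 4.93 and 4.31 in cKO and 6.46, 7.55 and 5.4 in WT (difference −1.78 ± 0.516, limma adjusted p = 0.134).

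Inward rectifiers, which pass potassium inward more readily than outward and hold the membrane near rest, had higher cKO means at 11 of 13 start windows (7 of 13 in edgeR, 12 of 13 on log2(value + 1)) and at 12 of 14 highest windows (10 of 14 in edgeR). The median differences were 0.771 and 1.06, and the groups did not overlap in 6 start windows and 7 highest windows, all of them higher in cKO. Over all genes, 14.8% of start windows were higher and 9.01% lower without overlap. The shares of highest windows were 13.8% and 10.6%. Inward rectifier genes had low levels in WT, with a median of 2.40 at the start. *Kcnj3* and *Kcnj6* encode G-protein-gated subunits. *Kcnj3* had 2.62, 3.74 and 2.24 in cKO and 1.8, 0.645 and 1.44 in WT at its start, and *Kcnj6* had 3.0, 4.0 and 3.54 and 1.8, 1.81 and 2.7, without overlap in either gene. The *Kcnj3* window also holds the start of *Gm26794*, and it passed in edgeR (adjusted p = 0.0440) but not in limma (adjusted p = 0.148). The highest window with the largest difference in this family was in *Kcnj4*, with 6.61, 9.15 and 7.45 in cKO and 6.09, 5.12 and 6.56 in WT (difference 1.81 ± 0.625, limma adjusted p = 0.202). The most negative was in *Kcnj6*, 205 kb inside the gene (−0.768 ± 0.507, limma adjusted p = 0.491), so that start and maximum of this gene differed in sign.

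Tandem-pore-domain channels, which carry leak currents, were higher in cKO at 8 of 12 start windows, but at 6 of 12 in edgeR, where the median log2 fold change was −0.03. Their WT level at the start was the highest of the 10 families, with a median of 4.30. The difference at the highest windows ran from −1.68 ± 0.495 in *Kcnk18*, a channel of sensory neurons, to 1.04 ± 0.453 in *Kcnk9*. *Kcnk18* had 6.11, 5.72 and 5.67 in cKO and 8.4, 7.75 and 6.38 in WT, and *Kcnk9* had 6.22, 5.85 and 7.5 and 5.68, 5.22 and 5.55. Neither passed the test (limma adjusted p = 0.139 and 0.315). The 4 accessory Kcne genes were split, with 2 higher and 2 lower at the start, from −0.96 in *Kcne4* to 0.512 in *Kcne2*. Among their highest windows, *Kcne4*, whose highest window is its start window, was the lowest and *Kcne3* the highest at 0.50 ± 0.639, a difference that changed sign when cKO replicate 3 or WT replicate 1 was left out (−0.125 and −0.0143).

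GABA-A receptor genes had the smallest median difference of the 10 families in the main test, 0.132, close to the 0.0887 of all genes. It was not the smallest in edgeR or with the replicate number as a block, where it was 0.0176 and the Kcne median −0.167. In cKO 8 of 12 start windows were higher (7 of 12 on log2(value + 1), 8 of 12 in edgeR, 6 of 12 with the block). *Gabrr3*, a rho subunit, had 3.61, 3.34 and 2.34 in cKO and 5.05, 4.54 and 3.75 in WT (difference −1.35 ± 0.464, limma adjusted p = 0.201), and all WT libraries were above all cKO libraries. At the highest windows the family ran from −0.772 in *Gabrg1* to 1.34 in *Gabra5*, and neither passed the test (limma adjusted p = 0.307 and 0.339).

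Ionotropic glutamate receptor genes were higher in cKO at every start window measured, 3 of 3 for AMPA, 4 of 4 for kainate and 5 of 5 for NMDA receptors, with medians of 0.547, 0.506 and 0.411, but on whole reads at 3 of 3, 1 of 4 and 3 of 5. The kainate median was −0.03 on the log2 scale of edgeR. With the replicate number as a block the AMPA, kainate and NMDA counts were 3 of 3, 3 of 4 and 5 of 5, with medians of 0.930, 0.133 and 0.269. *Gria1*, an AMPA subunit, had low levels, with 1.28, 1.76 and 2.43 in cKO and 1.02, 0.256 and 0.839 in WT at the start, and did not pass the test (limma adjusted p = 0.223). The highest windows ran from −1.21 in *Gria4* to 1.78 in *Gria1*, from −0.25 in *Grik1* to 2.18 in *Grik3*, and from 0.103 in *Grin3b* to 2.52 in *Grin2c*. For *Grik3* the values were 3.45, 5.06 and 4.7 in cKO and 2.01, 2.79 and 1.86 in WT (limma adjusted p = 0.063), and for *Grin2c*, 4.74 kb from its start, 3.84, 6.64 and 5.47 and 2.85, 2.2 and 3.33 (limma adjusted p = 0.091). All 7 NMDA receptor genes were higher in cKO at their highest window on the deposited scale, but 4 of 7 in edgeR. Metabotropic receptors were higher at 4 of 5 start windows, and at 3 of 5 in edgeR. With the replicate number as a block it was also 3 of 5, with a median of 0.205. At the highest windows they were higher in 2 of 8 genes (also 2 of 8 in edgeR, 3 of 8 with the block). Differences there ran from −2.10 in *Grm8*, whose highest window is its start window, to 1.57 in *Grm2*.

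**Figure D2:**
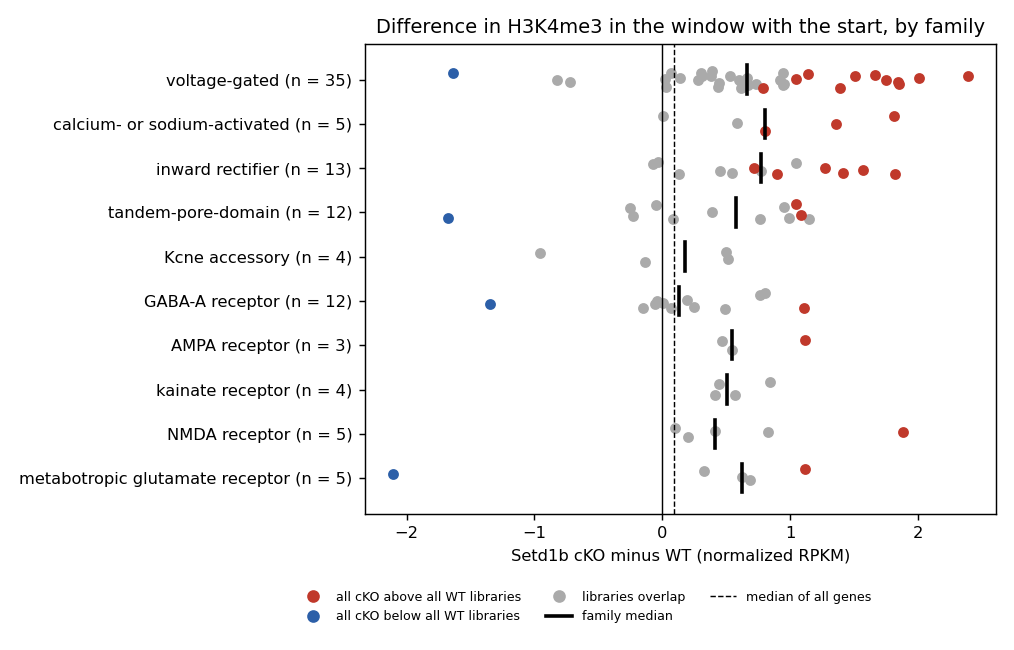
Difference in H3K4me3 (cKO mean minus WT mean, normalized RPKM) at the start window, 1 point per gene, for the 10 families, with vertical jitter only. Red and blue points are genes whose 3 cKO libraries all lie above or below the 3 WT libraries, thick bars are family medians, and the dashed line is the median of all genes at 0.0887; the GABA-A median of 0.132 is closest to it and the calcium- and sodium-activated median of 0.803 farthest.

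The start windows of the members were rich in CpG, with a median of 106.5 CpGs per 5 kb against 80 in all start windows. Across the 98 windows the rank correlation of CpG count and difference was 0.234, and across 19906 start windows of all genes with known sequence it was 0.260; windows share libraries and are not independent. Split at 53 and 110 CpGs, which divide all start windows into 3 equal parts, members were higher in cKO in 5 of 9, 39 of 45 and 38 of 44 windows (55.6%, 86.7% and 86.4%). In the same parts of all genes the shares were 38.4%, 59.8% and 64.7%. Median differences of the members were 0.251, 0.512 and 0.726, and those of all genes −0.184, 0.215 and 0.375. Split by WT level at 2.61 and 4.54 normalized RPKM, members were higher in 34 of 40, 33 of 37 and 15 of 21 windows (85%, 89.2% and 71.4%), against 54.3%, 66.7% and 41.7% of all start windows. These shares are on the deposited scale, the lowest CpG range holds 9 members, and WT level enters the difference itself.

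**Figure D3:**
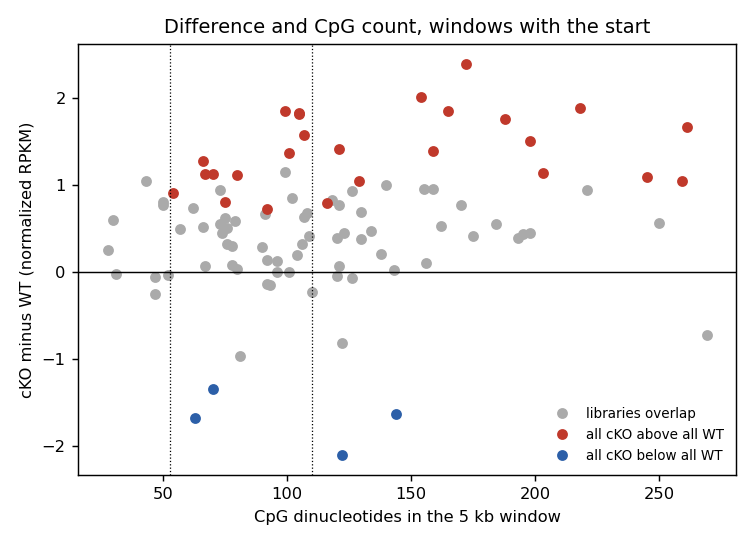
CpG dinucleotides in the 5 kb start window (x axis) and cKO minus WT in H3K4me3 (y axis, normalized RPKM) for 98 genes, colored by whether the libraries of the groups overlap; dotted lines mark 53 and 110 CpGs. Most points lie above 0 on both sides of 110 CpGs, and the 4 blue points, with every cKO library below every WT library, have between 63 and 144 CpGs.

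Along whole gene bodies, 23 of the 3249 windows gained and 4 lost H3K4me3 (limma, adjusted p under 0.05 over all windows), 0.708% and 0.123%, against 0.932% and 0.342% of the 214231 gene windows on chromosomes 1 to 19. The share of windows called was thus below that of all gene windows in both directions. The 27 windows lay in 21 genes, 18 with a gain and 3 with a loss, and 92 genes had neither. *Kcna5* is 1 of the 18 only through 2 windows that lie outside it in GENCODE M21, described below. At least 1 gained window was present in 15.9% of members and 5.16% of all genes, and at least 1 lost window in 2.65% and 2.51%, where members had a median of 10 windows and all genes of 3. None of the 27 was next to another. Of the 23 gains, 19 (82.6%) were in windows with more than 50 and up to 96 CpGs, where members had 578 windows, and 2 each in windows with fewer and with more. Of the 1996 gains in all gene windows, 1218 (61.0%) lay in this range. Members gained in 0.0789%, 3.29% and 1.48% of windows with few, intermediate and many CpGs, and all gene windows in 0.332%, 1.75% and 2.32%. Of the 23 gains, 2 held the start (*Kcnh2* and *Kcnv2*) and 9 overlapped an exon (39.1%, against 22.2% of member windows). Potassium channel genes held 13 gains and 1 loss in 1465 windows, and receptor genes 10 gains and 3 losses in 1784. In edgeR on whole reads 56 member windows were called, 45 gains and 11 losses (1.39% and 0.340%, against 1.63% and 0.447% of all gene windows), and 13 of the 27 were among them, while all 27 had the same direction. With an intensity trend there were 69 gains and 22 losses. With the replicate number as a block there were 79 gains and 71 losses, a small excess of gains. The matching shares of all gene windows are not given for these fits, so the counts describe the members only.

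**Figure D4:**
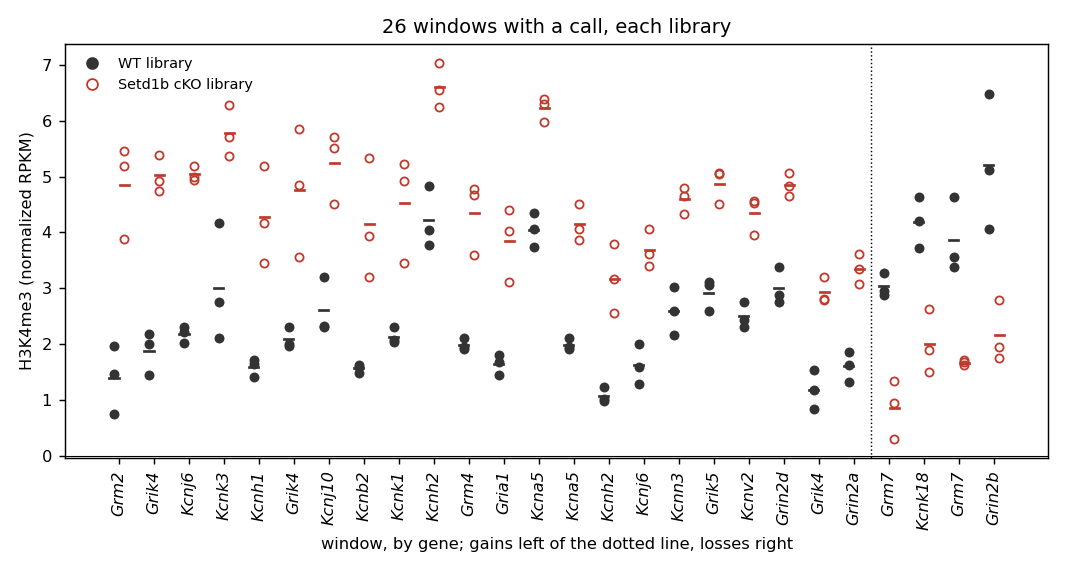
H3K4me3 (normalized RPKM) in 26 of the 27 called windows, ordered by difference, for 3 WT libraries (filled) and 3 *Setd1b* cKO libraries (open), with bars at the group means. In the 22 windows left of the dotted line every cKO library is above every WT library, and in the 4 on the right, in *Grm7*, *Kcnk18* and *Grin2b*, every cKO library is below.

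The largest gains were in *Grm2*, a presynaptic metabotropic receptor, *Grik4*, a kainate subunit that needs partner subunits to form a channel, and *Kcnj6*. In *Grm2*, 13.6 kb from the start, the values were 3.89, 5.45 and 5.18 in cKO and 1.96, 0.742 and 1.47 in WT (difference 3.45 ± 0.49, limma adjusted p = 0.022). They rest on 56, 49 and 122 reads in cKO and 22, 8 and 39 reads in WT, and the start of another gene, *Gm28111*, lies in this window, which runs past the annotated end of *Grm2*. *Grik4* was the only member with 3 called windows, at 27.0, 102 and 142 kb from its start. The middle one had 5.39, 4.93 and 4.75 in cKO and 1.44, 2.01 and 2.19 in WT (difference 3.14 ± 0.366, limma adjusted p = 0.014), and the others differed by 2.66 and 1.75. *Kcnj6* had 2, at 170 and 180 kb, and in the second the values were 4.94, 5.19 and 4.99 in cKO and 2.01, 2.3 and 2.22 in WT (difference 2.86 ± 0.324, limma adjusted p = 0.014). In both groups the 3 libraries of this window were close to each other and far from the other group.

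The profiles along *Grik4* and *Kcnj6* show that the called windows were not the windows with the highest WT values in these genes. The highest window of *Grik4*, 187 kb from the start, had 7.61, 6.91 and 9.47 in cKO and 7.82, 7.46 and 8.09 in WT, which overlap. At its start *Grik4* had 3.89, 4.79 and 3.98 and 3.64, 3.66 and 4.14. Other gains of the same kind, from low or intermediate WT levels, were seen in leak channels, with 5.38 to 6.28 in cKO and 2.1 to 4.17 in WT for *Kcnk3* and 3.45 to 5.23 and 2.04 to 2.3 for *Kcnk1*. The *Kcnk3* and *Kcnk1* windows did not pass in edgeR (adjusted p = 0.418 and 0.153), nor did the *Kcnj6* window at 180 kb (0.0831) and that of *Grik4* at 27.0 kb (0.103). *Kcnh1* gained 46.7 kb inside the gene, with 3.45 to 5.19 in cKO and 1.41 to 1.72 in WT, while its start window had lower values in cKO. *Kcnj10* gained 11.3 kb from its start (4.5 to 5.72 in cKO, 2.3 to 3.21 in WT), and *Kcnb2*, a delayed rectifier, 25.2 kb from its start (3.21 to 5.33 and 1.49 to 1.62). Among receptors, *Grm4* gained at 63.9 kb (3.59 to 4.78 and 1.91 to 2.1) and *Gria1* at 201.1 kb (3.11 to 4.4 and 1.44 to 1.81). In edgeR *Kcnh1*, *Kcnb2* and *Gria1* passed (adjusted p = 0.00503, 0.00125 and 0.0161), and *Kcnj10* and *Grm4* did not (0.335 and 0.0577). A second window of *Kcnh2*, 9.10 kb from the start, was also gained, from 0.989 to 1.23 in WT to 2.55 to 3.78 in cKO. Further gains, in *Grik5*, *Grin2d*, *Grin2a* and *Kcna5*, differed by 1.75 to 2.17. The 2 windows named for *Kcna5* lie 112 and 147 kb outside the gene as GENCODE M21 places it. By this annotation they do not belong to *Kcna5*. The first holds the start of *Kcna1*, which has no window under its own name. The window counted as the highest of *Kcna5* also lies outside it, at 107 kb, and overlaps *Kcna1*.

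The 4 losses were in *Grin2b*, an NMDA subunit of early brain development, *Grm7*, a presynaptic metabotropic receptor, and *Kcnk18*, none of them at a start or over an exon. The *Grin2b* window, 176 kb inside the gene, had 2.78, 1.76 and 1.95 in cKO and 4.05, 5.12 and 6.47 in WT (difference −3.05 ± 0.575, limma adjusted p = 0.043). The 2 windows of *Grm7*, at 487 and 577 kb, had 1.34, 0.305 and 0.94 and 1.67, 1.62 and 1.71 in cKO against 2.96, 3.27 and 2.88 and 3.37, 4.63 and 3.57 in WT (differences −2.17 ± 0.376 and −2.19 ± 0.40, limma adjusted p = 0.035 and 0.04). In both windows every cKO library lay below every WT library. The *Kcnk18* window, 3.29 kb from the start and next to its start window, had 1.89, 1.49 and 2.63 in cKO and 4.21, 4.63 and 3.72 in WT (difference −2.18 ± 0.413, limma adjusted p = 0.044). In edgeR the losses in *Grm7* and *Kcnk18* also passed, with adjusted p of 0.000334, 0.0131 and 0.0478, and *Grin2b* did not at 0.0731.

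**Figure D5:**
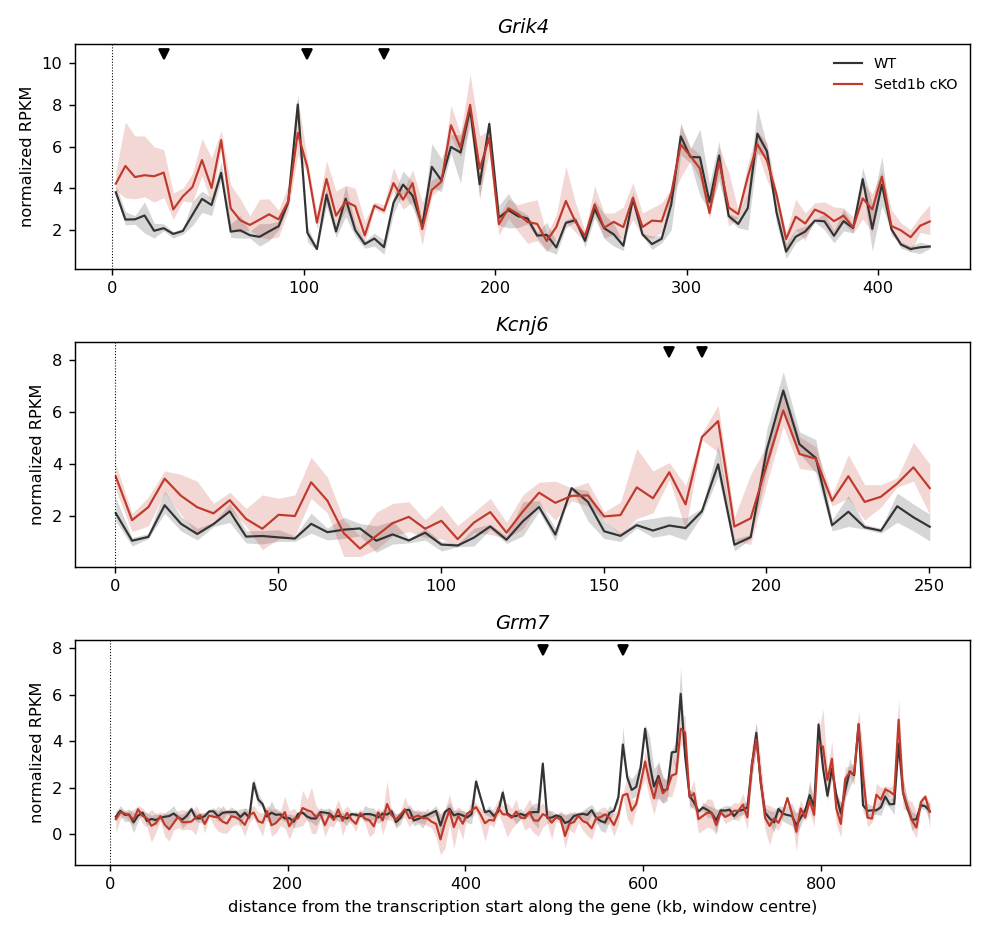
H3K4me3 (normalized RPKM, y axis) in 5 kb windows along *Grik4*, *Kcnj6* and *Grm7*, by distance from the transcription start in kb (x axis); lines are means of 3 WT (black) and 3 *Setd1b* cKO (red) libraries, shading is their range, and triangles mark called windows. The red line is above the black at the triangles of *Grik4* and *Kcnj6* and below it at both triangles of *Grm7*.

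Sequence is shown for the 2 largest gains and the losses in *Grin2b* and *Grm7* to show the CpG content of gained and lost windows. Each is the stretch of 300 bases outside exons with the most CpGs in the window (GRCm38, in the direction of the gene, which is the minus strand except for *Grm7*), with CpGs in capitals. The stretches lie at chr9:106640001-106640300 for *Grm2*, chr9:42841040-42841339 for *Grik4*, chr6:135996243-135996542 for *Grin2b* and chr6:111220804-111221103 for *Grm7*. The *Grm2* stretch lies downstream of the annotated end of the gene.
*Grm2* gain: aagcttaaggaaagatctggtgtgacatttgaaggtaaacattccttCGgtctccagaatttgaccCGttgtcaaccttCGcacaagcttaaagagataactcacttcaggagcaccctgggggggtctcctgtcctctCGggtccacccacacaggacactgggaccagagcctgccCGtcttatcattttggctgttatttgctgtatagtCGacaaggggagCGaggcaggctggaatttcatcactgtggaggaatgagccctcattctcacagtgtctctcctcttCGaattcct
*Grik4* gain: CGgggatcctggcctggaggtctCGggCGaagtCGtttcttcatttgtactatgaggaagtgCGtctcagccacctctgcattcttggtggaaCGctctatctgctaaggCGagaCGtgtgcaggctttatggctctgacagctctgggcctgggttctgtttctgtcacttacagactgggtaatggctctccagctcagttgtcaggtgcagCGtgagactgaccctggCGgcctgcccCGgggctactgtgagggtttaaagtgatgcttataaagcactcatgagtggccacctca
*Grin2b* loss: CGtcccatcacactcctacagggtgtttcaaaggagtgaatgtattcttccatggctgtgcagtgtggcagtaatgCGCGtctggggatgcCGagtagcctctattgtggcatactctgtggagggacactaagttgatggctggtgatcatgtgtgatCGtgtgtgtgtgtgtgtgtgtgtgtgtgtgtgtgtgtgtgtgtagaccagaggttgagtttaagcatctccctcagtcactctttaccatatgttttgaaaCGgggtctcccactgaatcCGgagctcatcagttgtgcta
*Grm7* loss: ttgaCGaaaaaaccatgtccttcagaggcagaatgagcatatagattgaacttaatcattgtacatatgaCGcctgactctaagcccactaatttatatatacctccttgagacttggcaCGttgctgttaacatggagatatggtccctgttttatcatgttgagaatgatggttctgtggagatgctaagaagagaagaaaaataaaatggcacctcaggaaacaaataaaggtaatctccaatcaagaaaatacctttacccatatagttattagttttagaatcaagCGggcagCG
They held 8, 11, 7 and 5 CpGs. The whole windows held 64, 71, 42 and 28, where the median gene window held 44 CpGs and the shares of gene windows with at least as many were 23.6%, 17.7%, 53.7% and 79.1%. The other loss in *Grm7* had 24 CpGs, and the one in *Kcnk18* had 109. Over the 3249 member windows the rank correlation of CpG count and difference was 0.313, and over 213954 gene windows with known sequence 0.289.

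Averaged over all windows of each gene, H3K4me3 was higher in cKO in 77 of the 113 genes (68.1% against 61.7% of all genes), with a median difference of 0.234 against 0.148. The libraries of the groups did not overlap in 32 genes that were higher and 4 that were lower in cKO, where 23.2% and 7.89% of all genes had such body means. By family, windows were higher in cKO in 76.8% of 138 windows of tandem-pore-domain genes and 72.9% of 155 windows of inward rectifiers, and in 39.8% of 450 windows of GABA-A genes and 42.3% of 620 windows of metabotropic receptor genes, where the share over all gene windows was 61.1%. In edgeR on whole reads these shares were 71%, 83.2%, 61.4% and 63.8%, against 67.4% of all gene windows, so that the GABA-A and metabotropic families were mostly lower in cKO on the deposited scale and mostly higher on whole reads. Long genes carry most of these windows, with 184 in *Grm7* and 173 in *Grm8*, so that the shares of receptor families rest on few genes. Away from starts, 1602 of 3151 member windows (50.8%) were higher in cKO, with a median difference of 0.00645. In edgeR 62.7% of these windows were higher in cKO.

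Genes that work with these channels and receptors but fall outside the rule were examined at their highest windows too. Of 48 such genes (auxiliary subunits, other channel and receptor subunits, transmitter synthesis, transporters and scaffolds), 46 had a window, and none gained and 1 lost H3K4me3, with 25 higher in cKO and a median difference of 0.135. Over the highest windows of all genes, 1.28% gained and 1.18% lost, 51.6% were higher in cKO and the median was 0.038. The loss was in *Homer1*, a scaffold of metabotropic glutamate receptors, with a mean of 3.39 in cKO and 6.56 in WT (limma adjusted p = 0.0133). *Kcnma1*, the large-conductance calcium-activated channel, had 4.11 and 6.93 (limma adjusted p = 0.0583), and *Kcnab2*, an accessory subunit of voltage-gated channels, 6.09 and 4.26 (limma adjusted p = 0.0823), and neither passed the test.

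Calls in single windows depended on 5 of the 6 libraries. Without cKO replicate 4, or without any single WT library, no member window was called, without cKO replicate 3 there were 7, all gains, and without cKO replicate 1 all 27 were still called, among 96. The exact permutation test of 3 against 3 libraries cannot give a p under 0.1.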

How the data were processed

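H3K4me3 was measured by ULI-nChIP-seq, native ChIP-seq for few cells, in pools of GV oocytes (3 *Setd1b* cKO and 3 WT libraries, with 2 input libraries per genotype), and samples were grouped by the genotype in their labels. Nothing in the labels ties pools to separate females, so p-values measure the spread between these pools. The paper excluded a further H3K4me3 replicate of each genotype for poor enrichment and an outlying position in clustering. The spread is thus that of the retained pools. Per the submitters' processing notes, reads were trimmed (Trim Galore 0.4.2) and mapped to GRCm38 (Bowtie2 2.2.9). For H3K4me3 the authors deposited a score, RPKM in 5 kb windows normalized for enrichment and left on a linear scale. For input the authors deposited a signal, which is reads per window relative to library size. Windows with high input had been left out by the authors, and each window carries 1 gene name. In every library 100% of values were whole steps (within 0.1 of a step), which gave the reads per window; duplicates cannot be told from independent fragments.

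The main test was limma 3.58.1 (R 4.3.3) on all 544879 windows (values as deposited, no intensity trend, two-sided, Benjamini-Hochberg over all windows, adjusted p under 0.05). For each gene the window with the highest mean over the 6 H3K4me3 libraries, the window of the transcription start (GENCODE M21) and all windows under its name were described, and CpGs were counted in the GRCm38 sequence. Named were every called highest window, the highest and lowest difference of each family, the 10 largest gains and 10 largest losses in gene bodies with groups that do not overlap (1 window a gene), and genes with 3 or more called windows; other genes were named after their values were seen. Members, lists and tests were chosen with earlier results of these data known. Alternatives were log2(value + 1), quantile normalization, an intensity trend, the replicate number as a block, a mean of at least 1, adjusted p under 0.01, leaving out each library, other choices of window, and edgeR 4.0.16 on whole reads (TMM or DESeq2 1.42.0 size factors, at least 10 reads). Both tests were run on simulated data as a check of the code. For limma the simulated shifts were larger than any member difference and the spread was reduced. The check therefore does not measure performance on these data. RefSeq promoters (GRCm38.p6) were matched by symbol for 81 of 113 members. Of 117 annotated genes that fit the rule, 4 (*Kcna1*, *Kcnj13*, *Grin1os* and *Kcnd3os*) had no window under their name. Values of some members are counted in the totals but not reported here.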

Additional observations from a re-analysis of the deposited data

How the results depend on the processing

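The calls depended on the scale and on single libraries. In the main test 3 highest windows were called. Against these, 0 were called on log2(value + 1), after quantile normalization and at an adjusted p under 0.01, and 1 with windows chosen by WT libraries. In edgeR 2 were called, or 1 with DESeq2 size factors, none of them among the 3, and 5 with an intensity trend, of which 1 was among the 3. Of 27 called gene-body windows, 0 were left on log2(value + 1), after quantile normalization and at an adjusted p under 0.01, while 91 were called with an intensity trend (69 gains), 56 in edgeR (45 gains) and 49 in edgeR with DESeq2 size factors (40 gains). At an unadjusted p under 0.05, 15 highest windows were higher and 2 lower in cKO on log2(value + 1), and 16 and 9 after quantile normalization. The matching shares of all genes on these scales are not given, so the counts describe the members only. Over all windows, 5539 were called in the main test, 0 on log2(value + 1), 1 after quantile normalization, 19492 with an intensity trend and 11514 in edgeR. The main test is not the study's own fit. The share of the genome that the paper reports as changed is larger, and nearer to the count with an intensity trend. Leaving out each library gave 0 to 12 called highest windows, 0 to 96 called gene-body windows and 0 to 17979 called windows in all. The cause was not tested. The median difference over highest windows, 0.278, was 0.556 at start windows and 0.0577 on log2(value + 1), a different unit. Among 36 named windows refitted 432 times, 289 refits kept direction and side of the threshold, 126 lost the call, 12 gained one and 5 reversed. Leaving out single libraries, the difference ran from −0.601 to 0.348 in *Grik1* (reversed without cKO replicate 4), from −0.163 to 0.398 in *Grin3b* (reversed without cKO replicate 4 and, at −0.0535, without WT replicate 4) and from −0.125 to 1.05 in *Kcne3* (reversed without cKO replicate 3 and, at −0.0143, without WT replicate 1).

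The groups share the replicate numbers 1 and 4, and the deviations of same-numbered libraries from their group means correlated with r = 0.319 and 0.0190 across windows, so the numbers were not taken to pair the samples. With the replicate number as a block (replicate block), 15 highest windows were called (8 gains), 150 gene-body windows (79 gains) and 33433 windows in all. In that fit 76 of 98 start windows were higher in cKO. Libraries whose number occurs in only 1 group do not inform its difference, so it rests on replicates 1 and 4. Depth limits the precision of single windows, with a median of 11 to 47 reads per window in the libraries.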
